A study of Mus musculus with 4 samples.

Results

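Leukocyte integrins and general markers of immune cells were followed in purified intestinal stem cells (ISCs) of young and old mice, as a set of 10 genes among the 52459 genes with counts. The set held the integrin chains Itgam, Itgal, Itgax, Itgae and Itgb2, the pan-leukocyte gene Ptprc, the chemokine receptor Ccr2, the signalling adaptors Fcer1g and Tyrobp, and the T cell receptor component Cd3e. Genes were matched by symbol. They had been chosen with their measured counts at both ages in view, so their differences between ages are described and carry no independent test.

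The samples were 4 full-length RNA-seq libraries of sorted small intestinal ISCs from WT mice of strain C57/Bl6, 2 from mice aged 2 months (ISC_2mth) and 2 from mice aged 22 months (ISC_22mth). The study's methods name female mice, and the labels give no treatment or transgene for either group. Cells of 5 animals were combined for each library, so that the spread between replicates is the spread between pools, and differences between single animals cannot be seen. Cells were sorted by the SM6 strategy, which keeps crypt cells positive for EPCAM and CD166, with high CD44 and EPHB2, medium CD24 and low GRP78, and removes cells carrying CD45 or CD31. CD45 is the product of Ptprc, so a member of the set was itself an antigen of the negative gate.

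Integrins are surface receptors made of an alpha and a beta chain, and neither chain is stably displayed without its partner. The beta chain encoded by Itgb2 (CD18) is shared by the leukocyte alpha chains of Itgal (CD11a), Itgam (CD11b) and Itgax (CD11c), which hold lymphocytes and myeloid cells to endothelium, complement-coated particles and each other. The alpha chain of Itgae (CD103) pairs instead with that of Itgb7 and ties intraepithelial lymphocytes to E-cadherin on intestinal epithelium. CCR2 draws monocytes along gradients of CCL2, and Fcer1g, Tyrobp and Cd3e encode signalling chains with activation motifs (ITAMs) that are common to myeloid cells, natural killer cells or T cells.

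Total counts were between 11662654 and 15975698 per library, of which mitochondrially encoded genes took 62.6% and 65.7% at 2 months and 73.8% and 72.9% at 22 months. Values are given as raw reads and as CPM, in which each library is brought to the same size by the TMM method. A count of 3 reads, the limit that a count of 0 allows, stood for between 0.199 and 0.246 CPM. Such limits, and the intervals given for counts, cover counting error only, because several amplified reads can stem from 1 RNA molecule. Genes had to exceed both 5 reads and 1 CPM in some pool to be tested, which 13692 did. Ages were compared by the quasi-likelihood test of edgeR, with p-values adjusted after Benjamini and Hochberg (FDR). At an FDR under 0.05, 309 genes were called (2.26%), of which 223 were higher (1.63% of those tested) and 86 lower in old ISCs. Before adjustment, 2316 genes (16.9%) had a p under 0.05, the share beside which such counts for lists of genes stand. Under scaling by total counts, 96 were called higher and 4554 lower, and the median of the log2 fold changes moved from -0.0049 to -0.50. All 8 stem cell markers, such as Lgr5 and Olfm4, were tested, with between 35485 and 41438 reads in sum per pool, and 8 goblet, Paneth and enteroendocrine markers had between 21723 and 40625, more than the stem cell markers in ISC_22mth replicate 1. None of the 8 stem cell markers was called by the quasi-likelihood test, although 5 had an unadjusted p under 0.05. Their median log2 fold change was -0.12, with 3 of the 8 above 0. Axin2 was called lower in old ISCs by limma voom, DESeq2 and edgeR's likelihood ratio test. Under total counts 5 of the 8 were called lower.

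The integrin alpha chain gene Itgam was the most abundant member, with at least 148 reads per pool, and was higher in old ISCs. It is a gene of 30 exon blocks at chr7:128062640-128118491 on the plus strand of GRCm38. The sequence in front of its start is shown because Itgam was the leukocyte alpha chain with most reads, and that of Itgax because this next leukocyte alpha chain gene on the same strand, whose start lies 66.9 kb downstream, was listed at 0 in all 4 pools. The stretches are the plus strand at chr7:128062390-128062639 and chr7:128129300-128129546 of GRCm38.p6, taken from RefSeq, and capitals mark GAGGAA or its reverse complement, the core that the myeloid factor PU.1 binds.
Itgam: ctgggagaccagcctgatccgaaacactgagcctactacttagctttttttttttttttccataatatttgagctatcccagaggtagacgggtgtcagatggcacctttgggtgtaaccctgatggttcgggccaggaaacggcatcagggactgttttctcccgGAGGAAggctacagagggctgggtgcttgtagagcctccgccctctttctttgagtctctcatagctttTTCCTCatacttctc
Itgax: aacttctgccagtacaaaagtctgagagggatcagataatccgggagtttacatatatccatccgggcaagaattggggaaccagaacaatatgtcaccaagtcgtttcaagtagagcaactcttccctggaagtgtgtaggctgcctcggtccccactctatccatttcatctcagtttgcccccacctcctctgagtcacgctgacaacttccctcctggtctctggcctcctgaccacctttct
The Itgam stretch held GAGGAA at bases -84 to -79 from the start and its reverse complement at bases -15 to -10, and a further match on the minus strand lay past the start at bases 32 to 37, whereas the Itgax stretch held neither. GAGGAA on either strand occurred in 28.3% of the 32851 promoter windows of RefSeq, which reach from the stretch in front of the start to a little beyond it, so that its presence is common. RefSeq promoter windows were found for 6 of the 10 members, and GAGGAA was also found on 1 strand in the window of Cd3e and in 1 of the 2 windows of Ptprc, while those of Ccr2 and Fcer1g did not hold it. The other motifs searched on both strands were TGTGGT (RUNX core), GGGCGG (SP1 box) and TTCNNNGAA (interferon-gamma activated sequence), which occurred in 16.8%, 35.7% and 8.30% of all windows. In the Itgam window GGGCGG was found on the minus strand at bases -47 to -42, and TGTGGT lay just past the start in the windows of Itgax (bases 13 to 18) and Fcer1g (bases 9 to 14). These matches are letters in a window and do not show binding.

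**Figure D1:**
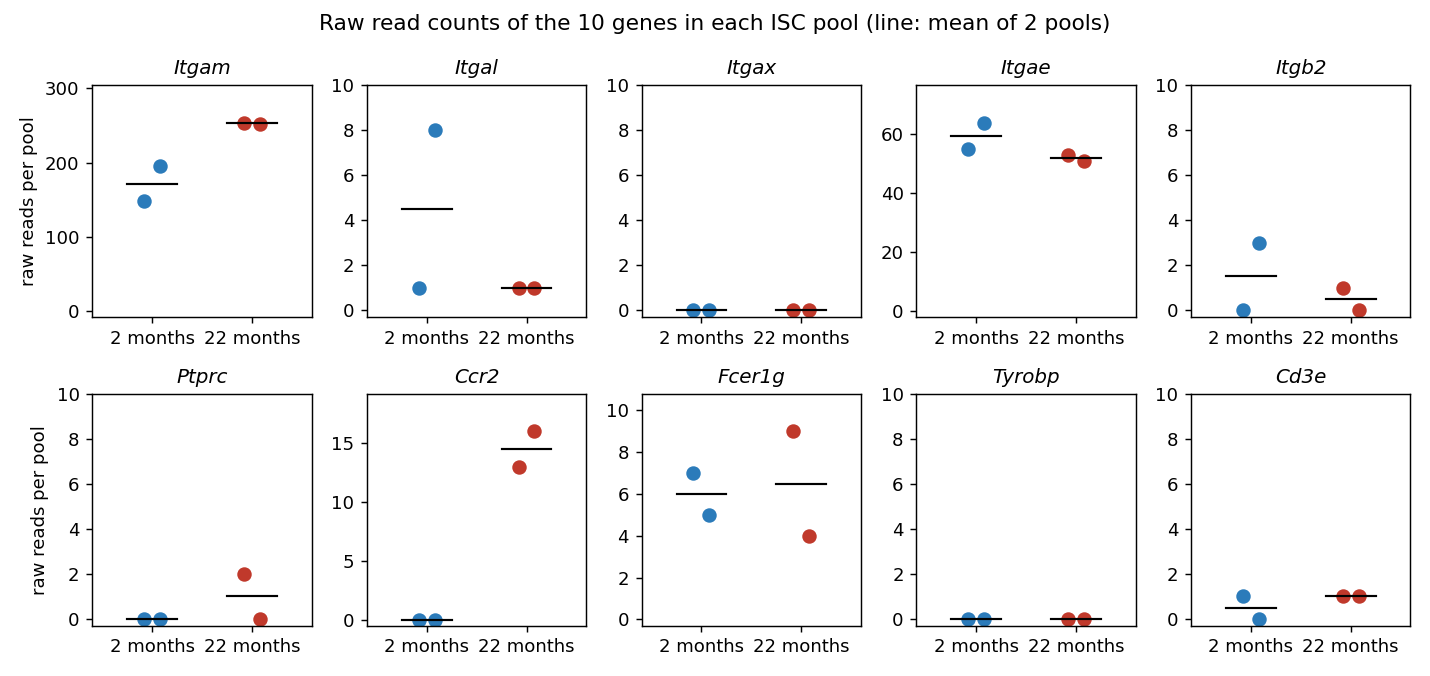
Raw reads per pool (vertical axis, linear, with its own range in each panel) of the 10 genes at 2 months (blue) and 22 months (red), with a line at the mean of 2 pools. Itgam and Itgae had 51 reads or more in every pool, Ccr2 had reads at 22 months only, and the other 7 genes had at most 9 reads in any pool.

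The Itgam gene was counted 148 and 196 times in young pools 1 and 2 and 254 and 252 times in old pools 1 and 2, the order kept for all genes below. The old pools did not overlap the young ones. On the CPM scale its level was 11.6 ± 1.96 in young ISCs and 19.9 ± 1.00 in old ISCs (SD, n = 2 each), a fitted log2 fold change of 0.78 with a standard error of 0.18, or 1.72-fold. Both old pools also exceeded both young pools in 24.0% of all genes tested, so that this order alone is common. The difference kept its direction in all 13 alternative analyses, between 0.30 and 0.96 on the log2 scale, and was called in 10 of them, DESeq2 not included. It was 0.78 when TMM was computed without the mitochondrially encoded genes, and fell to 0.30 under scaling by total counts, which is 0.79 above the median shift of all genes under that scaling. Without ISC_2mth replicate 1, the lower of the young pools, it was 0.62 and was no longer called.

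The share of Itgam that can be counted depends on the annotation. In GENCODE vM21, exons of the gene model Gm49368 on the same strand cover 3450 bases (68.7%) of the Itgam exons, and 66.3% of the 50-nt stretches of Itgam transcripts also occur in Gm49368. Gm49368 has no row among the counts, which the authors made with vM15. Apart from Gm49368, none of the 50-nt stretches of Itgam (0%) was found in another gene. Around the locus, 9 other genes starting or ending within 150 kb of Itgam were tested. None of the 9 was called by edgeR's quasi-likelihood test, limma voom or DESeq2, although 2 had an unadjusted p under 0.05 and 4 were called lower under total counts, and their log2 fold changes ranged from -2.04 to 0.33. Itgax and Itgad, the alpha chain genes that follow Itgam on the chromosome, had 0 reads in all 4 pools.

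The partner of the Itgam chain was nearly missing from the counts. Itgb2 (chr10:77530252-77565708, plus strand) had 0 and 3 reads in young and 1 and 0 in old ISCs, within the limit that a count of 0 allows. Only 1.05% of its 50-nt stretches occur in another gene, and its exons overlap no other gene in vM21, so that neither feature covers much of the gene. Per kb of exon, the scale on which genes can be compared, Itgam had a mean of 3.14 CPM and Itgb2 one of 0.0225 CPM. The beta chain paralog Itgb2l was counted 45 and 15 times in young and 10 and 14 times in old ISCs, with the young pools far apart (2.05 ± 1.49 CPM and 0.952 ± 0.276 CPM). Its log2 fold change of -1.10 was not called (FDR 0.38). Whether Itgam transcripts in these cells give rise to surface protein was not measured.

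The other alpha chain genes that use Itgb2 were at the edge of detection. Itgal (chr7:127296260-127335138, plus strand), the alpha chain of the lymphocyte adhesion receptor LFA-1, had 1 and 8 reads in young and 1 and 1 in old ISCs. The 8 reads of ISC_2mth replicate 2 set the young mean, and the ages overlapped. Itgax (chr7:128129547-128150657, plus strand), the dendritic cell marker CD11c, had 0 reads in every pool. A listed 0 need not mean absence: Ilk, an integrin-linked adaptor, was also listed at 0 in all 4 pools, with 89.7% of its exon length overlapped by other genes in vM21. The exons of Itgax overlap no other gene there, and 8.02% of its 50-nt stretches occur in Itgad.

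The mucosal alpha chain gene Itgae (chr11:73090583-73147446, plus strand) was detected in every pool, with CPM that overlapped between ages. It was counted 55 and 64 times in young and 53 and 51 times in old ISCs, so that raw reads were slightly fewer in the old pools. After normalization the pools overlapped, with 4.02 ± 0.316 CPM in young and 4.09 ± 0.117 CPM in old ISCs (SD, n = 2 each). The log2 fold change was 0.03 with a standard error of 0.30, and in the 13 alternatives it lay between -0.46 and 0.11 and was never called. The value of -0.46 came from total counts and is 0.03 above the median shift of that scaling. Per kb, Itgae averaged 0.885 CPM, below Itgam at 3.14 CPM. The Haspin gene lies within Itgae on the opposite strand and shares 0 exon bases with it. Haspin had between 83 and 105 reads per pool, and reads of unspliced Itgae or of Haspin cannot be told apart by strand where the counting setting is not given.

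The beta chain partner and the ligand of the Itgae chain were both measured. Itgb7 had 13 and 20 reads in young and 5 and 22 in old ISCs, with 1.11 ± 0.303 CPM and 1.09 ± 1.01 CPM, so that the old pools lay on either side of the young ones. Cdh1, which encodes E-cadherin, had 332 ± 20.5 CPM in young and 328 ± 18.5 CPM in old ISCs. Its log2 fold change of -0.02 was not called (FDR 0.95).

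**Figure D2:**
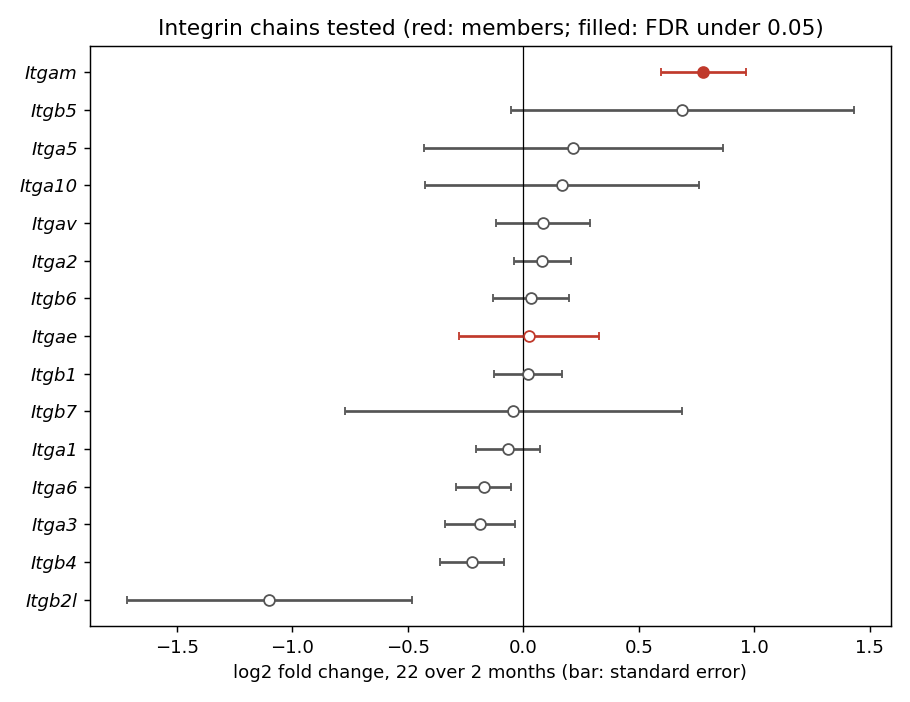
Fitted log2 fold change of old over young ISCs (horizontal axis) with its standard error for the 15 integrin chain genes that passed the filter. Red marks Itgam and Itgae, a filled symbol an FDR under 0.05, and Itgam at 0.78 is the filled symbol.

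Integrin chain genes as a group were followed as 27 genes, of which 15 passed the filter. Under TMM, Itgam was called and the 13 tested chains that are not members were not (edgeR's quasi-likelihood test), nor by limma voom, DESeq2 or edgeR's likelihood ratio test, and 0 of the 13 had an unadjusted p under 0.05, whereas under scaling by total counts 7 of the 13 were called lower. Their median log2 fold change was 0.02, against -0.0049 over all genes tested. The epithelial laminin receptor chain Itga6 was above every member per kb, and had 191 ± 8.51 CPM in young and 169 ± 17.3 CPM in old ISCs. The collagen receptor chain Itga2 had 860 and 918 reads in young and 863 and 756 in old ISCs, and Itga1 had 745 and 732 in young and 560 and 648 in old ISCs. Itgb1, the beta chain that pairs with Itga2 and Itga1, had 48.4 ± 4.93 CPM in young and 49.1 ± 9.61 CPM in old ISCs, and per kb its mean of 11.9 CPM exceeded the 3.14 CPM of Itgam.

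Of 16 listed genes that activate integrins or link them to the cytoskeleton, 13 were tested and 0 were called by edgeR's quasi-likelihood test, limma voom or DESeq2, with 4 at an unadjusted p under 0.05 and 2 called by edgeR's likelihood ratio test (Rap1b and Tln1), whereas 6 of the 13 were called lower under total counts. Fermt1, the epithelial kindlin, had 171 ± 3.79 CPM in young and 181 ± 1.75 CPM in old ISCs. The focal adhesion adaptor Pxn had 550 and 694 reads in young and 476 and 471 in old ISCs, and the small GTPase Rap1a had 429 and 572 in young and 625 and 562 in old ISCs, with log2 fold changes of -0.17 and 0.47 that were not called (FDR 0.58 and 0.10). Fermt3, the kindlin of blood cells (named after its values were seen), had 2 and 0 reads in young and 1 and 2 in old ISCs. Of 16 ligand genes of leukocyte integrins, 4 were tested and none was called by edgeR, limma voom or DESeq2, with 1 at an unadjusted p under 0.05, whereas 3 of the 4 were called lower under total counts. The leukocyte ligands Icam1 and Vcam1 (also named after their values were seen) had at most 5 and at most 1 reads in a pool.

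The chemokine receptor gene Ccr2 (chr9:124101950-124113557, plus strand) had reads in old ISCs only. It was counted 0 and 0 times in young and 13 and 16 times in old ISCs. Against a floor of 3 reads per young pool (a mean of 0.203 CPM), the old level of 1.15 ± 0.231 CPM was 5.65-fold higher. This ratio allows for counting error in young ISCs only and takes the old mean as measured, so that it is no lower bound. Summed over pools, the 29 reads in old ISCs have a 95% Poisson interval of 19.4 to 41.6, or 0.764 to 1.64 CPM. The pools did not overlap, and the old level was low per length, at 0.170 CPM per kb. Ccr2 passed the filter only through ISC_22mth replicate 2, where it was above 1 CPM, so that it could be tested only because it was high in an old pool. It was among the genes called, but not with limma voom or when either young pool was left out. The study, which names limma voom for its own calls, does list Ccr2 as higher in old ISCs. Why the limma voom result here differs from the published one was not tested. Of the 50-nt stretches of Ccr2, 1.91% occur in other genes.

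Ccr1 and Ccr3, which lie upstream of Ccr2 on the same chromosome, were listed at 0 in all 4 pools. Of 22 other chemokine receptor genes, 11 were at 0 in every pool and 3 were tested. None of the 3 was called by edgeR, limma voom or DESeq2, and 0 had an unadjusted p under 0.05. Among them Ccr9, the gut-homing receptor, had 31 and 35 reads in young and 34 and 17 in old ISCs. The scavenging receptor Ackr4 had 18 and 13 reads in young and 21 and 30 in old ISCs, with both old pools above both young ones, and Ccrl2 had 18 and 9 in young and 4 and 10 in old ISCs. The log2 fold changes of these 3 genes were -0.16, 0.94 and -0.71, in the same order. The genes of the CCR2 ligands, Ccl2, Ccl7, Ccl8 and Ccl12, had 0 reads in all 4 pools.

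**Figure D3:**
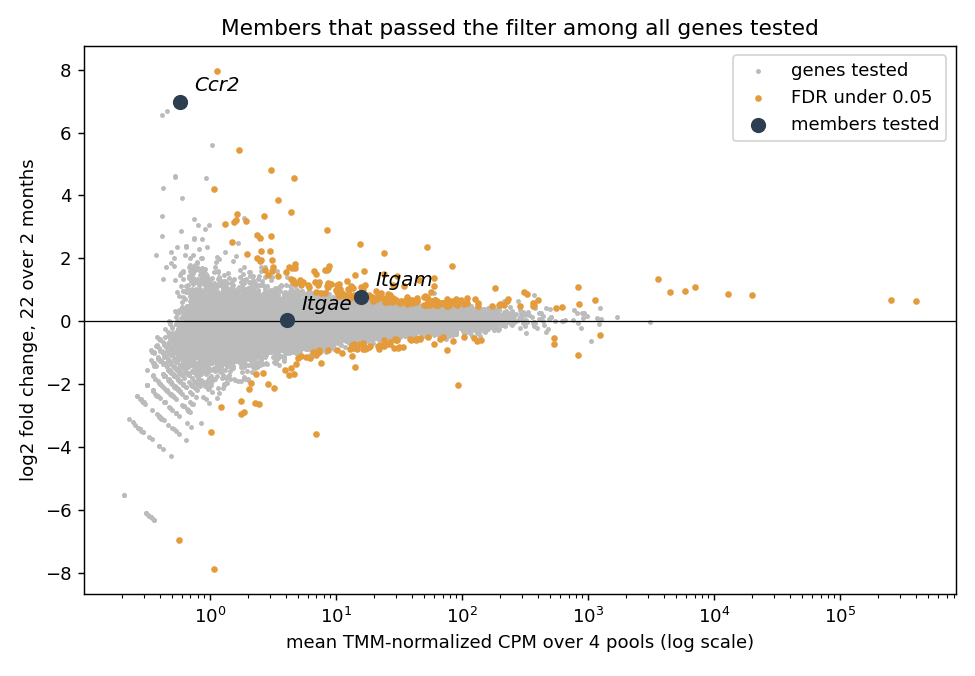
Fitted log2 fold change of old over young ISCs (vertical axis) against mean CPM over 4 pools (horizontal axis, log scale) for the 13692 genes tested, with genes at an FDR under 0.05 in orange and members in dark blue. Itgam (0.78) lies at the edge of the called genes, Itgae (0.03) in the middle, and the fitted value of Ccr2 rests on 0 reads in young ISCs and is no bound.

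Among the members, 3 of 10 passed the filter (Itgam, Itgae and Ccr2), and 2 of these 3, Itgam and Ccr2, were among the genes called higher. This count is given beside the 2.26% called over all genes without reading anything from it, since the members were chosen by this contrast. Ranked by CPM per kb as a mean over all 4 pools, Itgam (3.14) was followed by Itgae (0.885), Fcer1g (0.521) and Ccr2 (0.0848). Itgal (0.0288), Itgb2 (0.0225), Cd3e (0.0139) and Ptprc (0.00207) came next, with Itgax and Tyrobp at 0. The per-kb levels of the first 4 did not overlap each other in any pool, and Ccr2 held its place through the old pools, since its young level of 0 lay below those of Itgal (0.0456) and Itgb2 (0.0326). From Itgal down the order rests on few reads and neighbours do not differ beyond counting error.

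The pan-leukocyte gene Ptprc (chr1:138062861-138175708, minus strand), whose product CD45 was used to exclude cells, had 0 and 0 reads in young and 2 and 0 in old ISCs. Both reads fell in ISC_22mth replicate 1, below the floor. The endothelial gate antigen gene Pecam1 (CD31) had 1 and 0 reads in young and 1 and 7 in old ISCs.

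Of the ITAM adaptor genes, Fcer1g was detected in every pool. Fcer1g (chr1:171229572-171234365, minus strand), the common gamma chain of Fc receptors, had 7 and 5 reads in young and 9 and 4 in old ISCs. The old pools lay on either side of the young ones, at 0.407 ± 0.107 CPM and 0.504 ± 0.250 CPM. Summed, 12 reads (95% Poisson interval 6.20 to 21.0) in young and 13 (6.92 to 22.2) in old ISCs could not be told apart at this depth. Tyrobp (chr7:30413760-30417585, plus strand), which encodes the adaptor DAP12, had 0 reads in all 4 pools. Cd3e (chr9:44998740-45009627, minus strand), the epsilon chain of the T cell receptor complex, had 1 and 0 reads in young and 1 and 1 in old ISCs, and 135 of its exon bases overlap the antisense gene Gm48719.

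The 7 members under the filter together had 9 and 16 reads in young and 14 and 6 in old ISCs. The groups overlapped. Relative to all counts of a library, scaled as CPM without TMM, the sum was 0.983 ± 0.299 in young and 0.649 ± 0.322 in old ISCs, a ratio of 0.660, and relative to the counts outside mitochondrially encoded genes the ratio was 0.884. In bulk libraries fewer cells of a type and less RNA per cell cannot be told apart.

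Receptors and kinases that work with ITAM adaptors were followed as 27 genes, of which 10 were at 0 in every pool and 8 were tested. None was called by edgeR's quasi-likelihood test, limma voom or DESeq2, with 2 at an unadjusted p under 0.05, 1 called lower under total counts and a median log2 fold change of -0.03. Lyn, a kinase that phosphorylates ITAMs, had 174 and 146 reads in young and 129 and 166 in old ISCs, and Syk, the kinase that docks on them, had 71 and 96 in young and 82 and 46 in old ISCs. Per kb, Lyn averaged 2.76 CPM and Syk 0.567 CPM, against 0.521 CPM for Fcer1g. Plcg1, a phospholipase downstream of these kinases, had 12.5 ± 0.935 CPM in young and 9.15 ± 0.733 CPM in old ISCs, and its log2 fold change of -0.45 was not called (FDR 0.27).

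Reads on other immune cell markers were few, and their summed CPM overlapped between ages. Of 89 markers in 6 lists, with the members left out, 45 were at 0 in every pool, and 62 had at most 3 reads over all pools. Their reads summed to 270 and 185 in young and 176 and 157 in old ISCs, or 18.6 and 12.3 CPM against 13.3 and 12.9 CPM. Only 5 markers passed the filter (Vav1, Cd160, Cd68, Cd14 and Zbtb46), and none was called by edgeR's quasi-likelihood test, limma voom or DESeq2, with 1 at an unadjusted p under 0.05 and a median log2 fold change of -0.42. Under scaling by total counts, 2 of the 5 were called lower. The 5 took 191 and 122 of the reads in young and 103 and 111 in old ISCs, and the other 84 markers shared 79 and 63 in young and 73 and 46 in old ISCs.

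**Figure D4:**
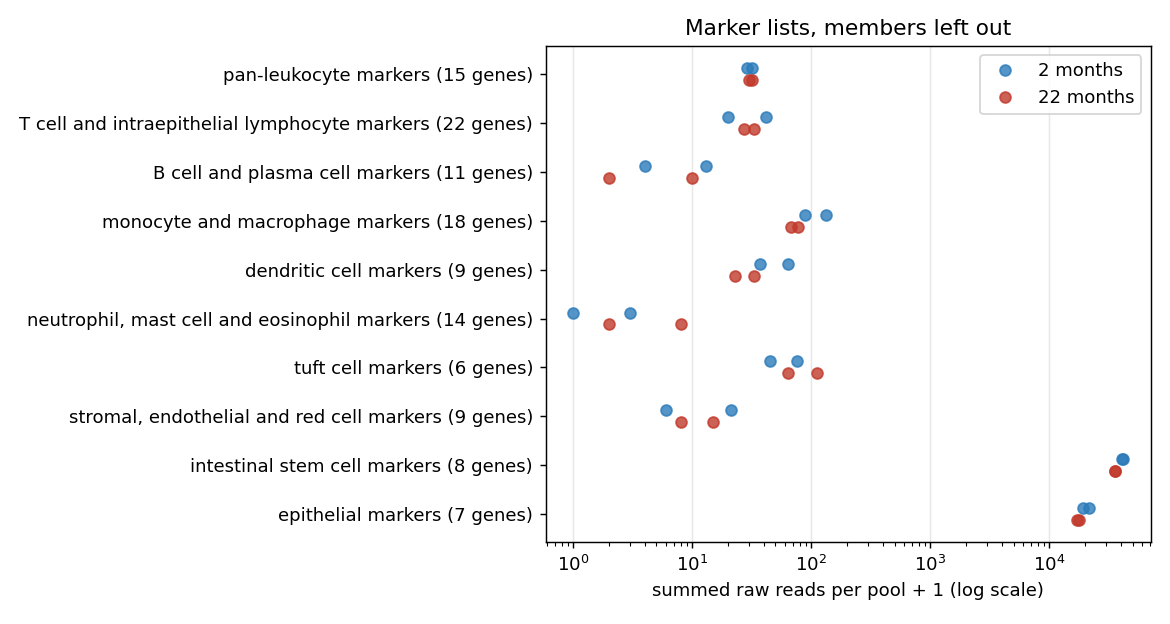
Summed raw reads plus 1 of each marker list in the 4 pools (horizontal axis, log scale), with the members left out, at 2 months (blue) and 22 months (red). The 6 immune lists lie between 0 and 132 reads per pool, and the stem cell list lies at 35485 reads or more.

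Monocyte and macrophage markers, the cells in which Itgam, Ccr2, Fcer1g and Tyrobp are best known, summed to 132 and 88 reads in young and 77 and 66 in old ISCs over 18 genes. Of these, 8 were at 0 in every pool, among them Adgre1 (F4/80), Fcgr1, Fcgr3, Spi1 (PU.1) and Ly6c2. The endosomal gene Cd68 had 63 and 41 reads in young and 30 and 22 in old ISCs, and Cd14, a co-receptor for lipopolysaccharide, had 47 and 25 in young and 18 and 28 in old ISCs. Their log2 fold changes of -0.79 and -0.42 were not called (FDR 0.32 and 0.70). The neutrophil, mast cell and eosinophil list, cells that also carry CD11b, had 0 and 2 reads in young and 7 and 1 in old ISCs over 14 genes, with 11 at 0 throughout, S100a8, S100a9 and Ly6g among them. Dendritic cell markers summed to 63 and 36 reads in young and 22 and 32 in old ISCs over 9 genes, nearly all from Zbtb46, while Flt3, Clec9a and Xcr1 were at 0.

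Lymphocyte markers also had few reads. T cell and intraepithelial lymphocyte markers summed to 41 and 19 reads in young and 32 and 26 in old ISCs over 22 genes, with 9 at 0 in every pool, including Cd3d, Cd3g, Cd4, Trbc1 and Trbc2. Cd160, the T cell list's most counted gene, had 20 and 9 reads in young and 16 and 4 in old ISCs. B cell and plasma cell markers summed to 3 and 12 reads in young and 9 and 1 in old ISCs over 11 genes, with 8 at 0 throughout. Pan-leukocyte markers summed to 31 and 28 reads in young and 29 and 31 in old ISCs over 15 genes. Within them Vav1, a signalling protein of blood cells, had 5 and 12 reads in young and 18 and 26 in old ISCs, without overlap. The other 14 genes of the list had 26 and 16 reads in young and 11 and 5 in old ISCs, among them Coro1a with 7 and 4 in young and 1 and 0 in old ISCs and Cd37 with 7 and 4 in young and 5 and 4 in old ISCs. The Vav1 log2 fold change of 1.59 was not called (FDR 0.25).

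Other epithelial cell types were read beside Itgam and Ccr2, as a sort can hold them. Tuft cell markers summed to 44 and 75 reads in young and 111 and 63 in old ISCs over 6 genes, with Gnat3 and Il25 at 0. The raw reads overlapped between ages, but the CPM did not, at 3.04 and 4.97 in young and 8.40 and 5.16 in old ISCs. The median log2 fold change of the 3 tested tuft cell markers was 0.94, with 2 of them above 0. Within the list Dclk1 had 4 and 4 reads in young and 42 and 19 in old ISCs and was called (log2 fold change 3.09, FDR 0.026, edgeR's quasi-likelihood test), though not by limma voom, nor when either young pool or ISC_22mth replicate 1 was left out. Like Ccr2, Dclk1 passed the filter only through the old pools, and is listed by the study as higher in old ISCs. Goblet, Paneth and enteroendocrine markers summed to 25660 and 30855 reads in young and 40625 and 21723 in old ISCs over 8 genes. In raw reads the old pools lay on either side of the young ones. In CPM the sums were 1770 and 2045 in young and 3074 and 1779 in old ISCs, and overlapped. All 7 tested genes of this list had a log2 fold change above 0, with a median of 0.37. An unadjusted p under 0.05 was found for 2 of the 7, and 2 were called lower under total counts. Of these Defa24, a Paneth cell defensin, was called by edgeR (log2 fold change 0.87, FDR 0.046), but not by DESeq2, under total counts, with filterByExpr or without ISC_22mth replicate 1. The gate antigen gene Cd24a was called by edgeR, limma voom and DESeq2 (0.68, FDR 0.003 with edgeR) but not under scaling by total counts. Ephb2, another gate antigen gene, had 855 and 778 reads in young and 470 and 509 in old ISCs, and its log2 fold change of -0.52 was called by limma voom and not by edgeR's quasi-likelihood test (FDR 0.058). Ephb2 was also called by edgeR's likelihood ratio test, under total counts, with no filter and with the replicate number as a block. It was not called by DESeq2, with RLE, with TMM without mitochondrially encoded genes or with filterByExpr. The part of these cell types in the counts of Itgam and Ccr2 was not tested.

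Genes most like each tested member over the 4 pools were found by the root mean square difference of log2 CPM, which matches level as well as pattern. For Itgam these were Ptcd2 (0.12), Sgf29 (0.14), Afap1l1 (0.15), Paip1 (0.16) and Tmem55a (0.16). For Itgae they were Hcfc1r1 (0.037), Cd46 (0.057), Ndufaf6 (0.060), Tusc2 (0.070) and Tpbg (0.076). None of these 10 genes is in a marker list used here. For Ccr2 the nearest genes lay farther off, Slfn5 (0.49), Ptgs1 (0.72), Cyyr1 (0.75), Gm9655 (0.79) and Gm35585 (0.87). Slfn5 had 1 and 0 reads in young and 17 and 9 in old ISCs, and Ptgs1 had 0 and 0 in young and 38 and 20 in old ISCs.

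**Figure D5:**
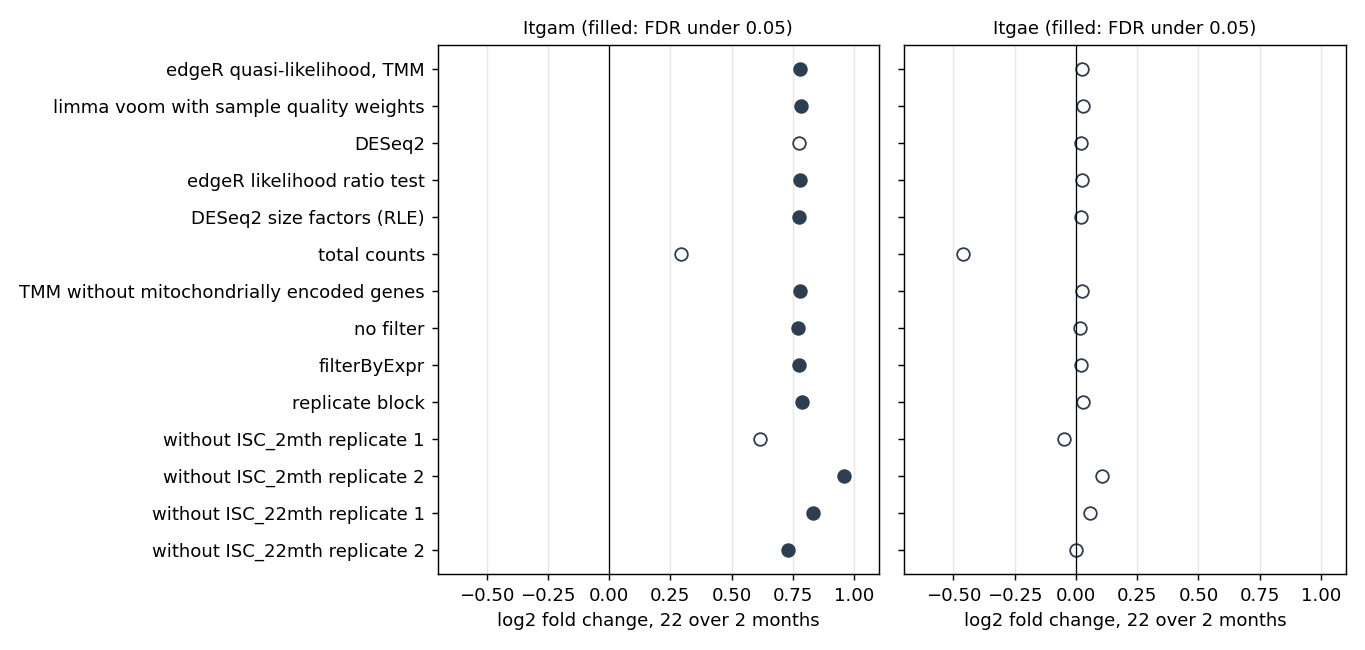
Log2 fold change of old over young ISCs (horizontal axis) for Itgam and Itgae in the analysis used and in 13 alternatives (vertical axis), with a filled symbol for an FDR under 0.05. Itgam stays above 0 throughout (0.30 to 0.96), and Itgae lies between -0.46 and 0.11 and is never filled.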

How the data were processed

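Single primer isothermal amplification (SPIA) of RNA from sorted ISCs preceded single-end sequencing. The authors trimmed reads with Trimmomatic (0.30), aligned them to GRCm38 with STAR (2.4.2a, both versions per the submitters' processing notes) and counted exonic reads of GENCODE vM15 genes with featureCounts, and they deposited raw counts per gene, which are not normalized. The strand setting and the treatment of reads with several alignments are not given in the sources used here.

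Genes that exceeded both 5 reads and 1 CPM in some pool were tested with edgeR 4.0.16 (R 4.3.3; TMM, glmQLFit and glmQLFTest, no covariate, FDR 0.05 over 13692 genes). Alternatives were limma 3.58.1 (voom with sample quality weights), DESeq2 1.42.0, edgeR's likelihood ratio test, RLE, total counts, TMM without mitochondrially encoded genes, no filter, filterByExpr, the replicate number as a block, and each pool left out. The script was tested on simulated data. Replicate pools differed by more than sampling noise (chi-square per gene 9.42 and 7.11 in young and old ISCs). P-values measure only the spread between pools. Positions, exon lengths and shared 50-nt stretches came from GENCODE vM21, matched by symbol, as vM15 was not used here. In the counts, 4 rows stood under repeated, date-like symbols.

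The members and lists were chosen with earlier results of these data known. Genes were named by a rule that allowed all members and, of each list, those with an FDR under 0.05, the 3 tested genes of highest mean CPM and, for immune markers, the 3 with most reads, plus the 5 genes most like each tested member. In lists on cell types beside the members, not all genes that the rule allows are named. Genes under list counts at 0 and neighbours of members were named after their values were seen. So were the gate antigen gene Pecam1 and the genes Rap1b, Tln1, Ephb2 and Axin2, each of which was called in an alternative analysis.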

Additional observations from a re-analysis of the deposited data

How the results depend on the processing

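Against 309 genes called between ages, DESeq2 called 197, edgeR's likelihood ratio test 611, total counts 4650 and no filter 554, and leaving out 1 pool gave 151 to 710. Of the 2 members called, 1 remained with limma voom (Ccr2 was lost, FDR 0.074), 1 with DESeq2 (Itgam was lost, FDR 0.074) and 1 with total counts (Itgam was lost, FDR 0.25), and leaving out 1 pool gave 0 to 2. Without ISC_2mth replicate 1 both were lost (FDR 0.30 for Itgam and 0.11 for Ccr2), without ISC_2mth replicate 2 Ccr2 was lost (FDR 0.073), and without ISC_22mth replicate 2 Ccr2 did not pass the filter and has no value. A group left with 1 pool is assumed to vary like the other. Of the listed genes that are not members, 3 were called, against 7 with the likelihood ratio test, 34 with total counts (1 higher and 33 lower), 7 with no filter and 3 to 12 without 1 pool. The causes were not tested. The Itgam difference was called in 10 of 13 alternatives, Ccr2 in 9 of 12 and Itgae in 0 of 13.

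With the replicate number as a replicate block, 623 genes, 2 members and 10 listed genes were called. Samples of the same number share only that number: the correlation of their deviations was -0.00015. This is a single check, since with 2 pools per age the deviations of replicate 2 are those of replicate 1 with the sign turned. The 7 members under the filter had at most 9 reads per pool, with 2 pools per age. With no filter the 2 members called were Itgam and Ccr2, and none of these 7 was. Which changes of the 7 could be detected at this depth was not tested.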
